A study of Mus musculus with 17 samples.

Results

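The S100 proteins, annexins and galectins described here are 10 genes chosen by symbol, out of 17097 genes measured on the arrays. They are S100a4, S100a6, S100a10, S100a11, Anxa1, Anxa2, Anxa5, Lgals1, Lgals3 and Vim, and all 10 were measured. The symbols were picked for their known link to memory lymphocytes. The choice was made with earlier results of these data known, so counts among the 10 are descriptions. Cells were sorted from male NOD mice, a strain that develops autoimmune inflammation of the tear gland and serves as a model of Sjögren's syndrome. The arrays fall into 5 groups, all of the NOD strain and with no other allele or agent named. The lacrimal gland (LG) of mice aged 16 weeks gave 3 arrays of epithelial cells (CD45-CD326+), 4 arrays of CD4 T cells and 4 arrays of B cells. The spleen gave 3 arrays of CD4 T cells and 3 arrays of B cells, named as the steady-state control. The age of the spleen donors is 16 weeks by the sample labels and 4 weeks by the design text, and age may therefore differ along with tissue. T cells were gated as CD3+CD4+ and B cells as B220+CD3-, with cells bearing NKp46, CD11b or CD11c removed. Enzymatic digestion is stated for the gland suspension. The labels do not state whether replicates were separate animals; the p-values therefore cover the spread between samples alone, and that spread may be technical.

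S100 proteins are small calcium-binding proteins that dock onto partner proteins when calcium rises. Annexins bind acidic phospholipids in membranes in the presence of calcium, and several of them form complexes with S100 partners, such as S100A10 with annexin A2 and S100A11 with annexin A1. Galectins are secreted or cytosolic lectins that bind beta-galactoside sugars, and vimentin is an intermediate filament protein of mesenchymal and blood cells. Many of these genes are known to be more strongly expressed in effector and memory T lymphocytes than in naive T lymphocytes, where their products take part in migration, membrane repair and cell shape.

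The upstream sequences of 5 of the genes are shown because these carry the gland results described further on. S100a6, Anxa2 and Lgals3 passed the test in gland CD4 T cells, and S100a11 and Anxa1 changed differently in CD4 T cells and B cells. The sequences are RefSeq's, build GRCm38.p6, each 250 bases ending just before the annotated transcription start and written in the direction of the gene. They span chr3:90612644-90612893 (plus strand) for S100a6, chr9:69453433-69453682 (plus strand) for Anxa2, chr14:47373610-47373859 (plus strand) for Lgals3, chr3:93520246-93520495 (plus strand) for S100a11 and chr19:20390672-20390921 (minus strand) for Anxa1. Capitals mark the letters TGANTCA, the core of the AP-1 motif.
S100a6: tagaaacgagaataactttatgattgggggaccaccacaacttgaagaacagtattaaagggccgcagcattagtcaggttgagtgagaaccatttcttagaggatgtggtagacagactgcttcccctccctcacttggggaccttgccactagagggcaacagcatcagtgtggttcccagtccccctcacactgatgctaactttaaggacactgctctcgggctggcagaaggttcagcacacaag
Anxa2: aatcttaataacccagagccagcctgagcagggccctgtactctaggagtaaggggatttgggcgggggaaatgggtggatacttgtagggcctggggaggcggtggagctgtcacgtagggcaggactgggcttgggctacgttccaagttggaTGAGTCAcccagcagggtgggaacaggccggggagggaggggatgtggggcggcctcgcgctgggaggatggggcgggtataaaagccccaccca
Lgals3: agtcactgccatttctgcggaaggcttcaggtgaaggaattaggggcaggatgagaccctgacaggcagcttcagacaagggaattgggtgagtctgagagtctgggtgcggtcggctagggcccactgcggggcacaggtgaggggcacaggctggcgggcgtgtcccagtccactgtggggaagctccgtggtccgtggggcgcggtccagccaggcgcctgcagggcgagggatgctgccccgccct
S100a11: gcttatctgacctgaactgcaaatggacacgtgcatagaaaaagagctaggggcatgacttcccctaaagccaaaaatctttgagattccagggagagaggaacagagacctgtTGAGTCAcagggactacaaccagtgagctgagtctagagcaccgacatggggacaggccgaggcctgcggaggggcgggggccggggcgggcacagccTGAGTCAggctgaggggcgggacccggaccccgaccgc
Anxa1: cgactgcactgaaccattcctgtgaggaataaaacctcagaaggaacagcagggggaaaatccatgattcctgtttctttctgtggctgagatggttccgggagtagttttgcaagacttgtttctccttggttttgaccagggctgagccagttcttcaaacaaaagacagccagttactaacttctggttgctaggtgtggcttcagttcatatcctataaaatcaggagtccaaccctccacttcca
Promoters of 8 of the 10 genes matched the RefSeq table; S100a10 and Lgals1 were not among them. Motifs were searched on both strands of the 300 bases made of 250 before and 50 after the start. TGANTCA was found in 2 of the 8 promoters and in 7.81% of all 32851 promoters. S100a11 held TGAGTCA at 136 and at 38 bases before the start, and Anxa2 held it at 95 bases before the start. The GC box letters GGGCGG were in 3 of the 8 promoters (S100a11, Anxa2 and Lgals3), against 35.7% of all. TGTGGT, the core of RUNX motifs, was in the S100a6 promoter alone among the 8, at 3 places, and in 16.8% of all promoters. CCACCC was in 3 of 8 (Vim, S100a4 and Anxa2) and 31.5% of all, and GGGANNNCC, a loose form of the NF-kB motif, in 3 of 8 (Vim, S100a4 and S100a6) and 18.6% of all. In S100a6 the GGGANNNCC match shares bases with 1 of the RUNX matches, and in Vim both GGGANNNCC matches overlap. These matches are descriptions of the letters in these windows.

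Values are log2 expression as deposited, so a difference of 1 is a doubling. To be called, a gene needed a limma adjusted p under 0.05 (Benjamini-Hochberg, over all 17097 genes) and a change of at least 2-fold. Errors beside means are standard deviations between arrays, and errors beside differences are standard errors (SE) from the model. Each array holds the RNA of many cells, so a larger share of cells rich in a transcript and more transcript per cell cannot be told apart.

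Lineage markers followed the sort in most arrays, and the arrays that stand apart touch several of these genes. The summed list of 8 T cell markers averaged 10.40 to 10.52 in gland and 10.33 to 10.39 in spleen CD4 T cells, and 4.36 to 4.89 in the B cell arrays; the list of 7 B cell markers averaged 9.91 to 10 in gland and 10 to 10.15 in spleen B cells. Epithelial array 1 held Ptprc, which encodes the leukocyte protein CD45, at 9.62, against 2.42 and 2.36 in the other epithelial arrays, although the gate was CD45 negative; its T cell list averaged 6.28, against 4.04 and 4.13. Spleen B cell array 3 held S100a8 and S100a9, the calgranulins of neutrophils, at 9.63 and 9.72, and its neutrophil list averaged 6.37, against 3.47 and 3.31 in the other spleen B cell arrays. Gland B cell arrays 1 and 2 held Ccr9, a chemokine receptor also found on plasmacytoid dendritic cells, at 8.88 and 8.54, against 5.87 and 7.34 in arrays 3 and 4. All 8 gland lymphocyte arrays held epithelial transcripts: the list of 11 epithelial markers averaged 6.60 to 6.96 in gland and 3.81 to 4.17 in spleen CD4 T cells, and 6.36 to 6.67 in gland and 3.97 to 4.36 in spleen B cells, with 9.73 to 10.12 in the epithelial sort. Of 5 plasma cell markers 4 were called higher in CD4 T cells of the gland, with Jchain at 9.09 there and 5.57 in CD4 T cells of the spleen, although activated T cells also use Irf4, Prdm1 and Xbp1 of that list; the part of such cells in the results was not tested. The epithelial sort also averaged 8.06 to 8.58 over 7 endothelial, 8.21 to 8.55 over 7 myoepithelial and 6.03 to 6.25 over 8 fibroblast markers. The list of 12 macrophage and myeloid markers averaged 4.53 to 4.62 in gland and 3.66 to 4.25 in spleen CD4 T cells. It averaged 4.06 to 4.79 in gland and 3.91 to 4.56 in spleen B cells. Between tissues Cd14 alone of that list was called, higher in gland CD4 T cells. In epithelial array 1 the list averaged 5.77, against 4.00 and 4.10 in the others. The part of myeloid cells in the results was not tested.

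**Figure D1:**
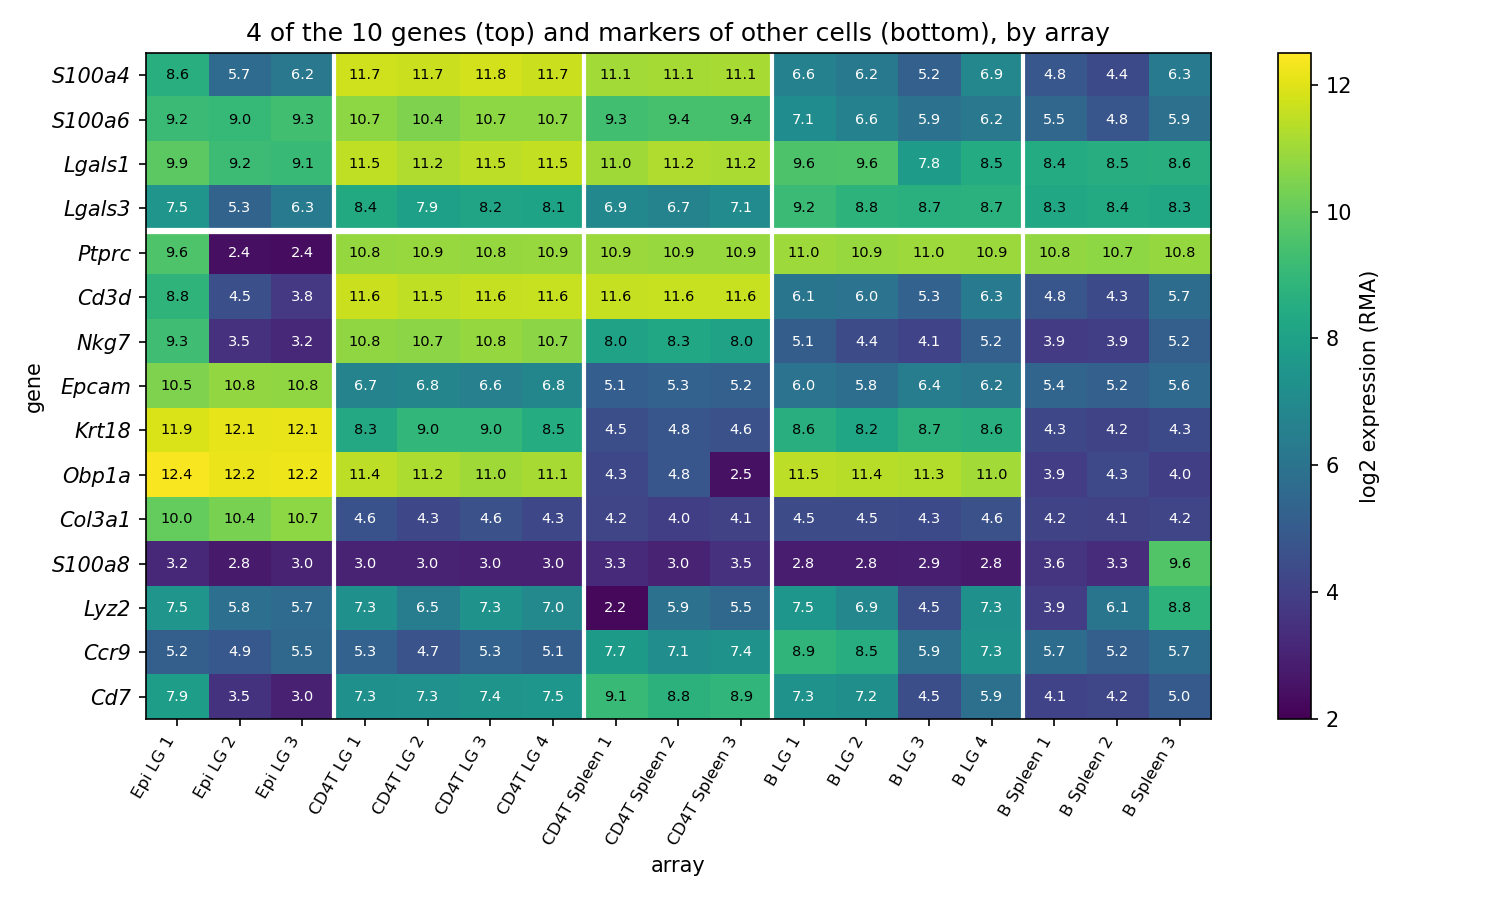
Log2 expression of 4 of the genes (top rows) and of markers of other cells (lower rows) in each of the 17 arrays; colour gives the level, which is also printed in each cell. Ptprc and Nkg7 are high in epithelial array 1, S100a8 in spleen B cell array 3, and Krt18 and Obp1a in all 8 gland lymphocyte arrays.

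In gland CD4 T cells, set against spleen CD4 T cells, 3 of the 10 genes rose by more than 2-fold, namely Anxa2, S100a6 and Lgals3, and none fell. Over all genes 5.35% were called higher and 1.62% lower in this comparison. By adjusted p alone 6 of the 10 were higher, adding S100a11, Anxa1 and Anxa5, against 12.7% of all genes. The median difference of the 10 genes was 0.77 on the log2 scale, against -0.03 over all genes. Arrays of the 2 tissues did not overlap for 8 of the 10 genes, with the gland higher, a pattern shown by 16.8% of all genes; S100a10 and Lgals1 were the exceptions.

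S100a6, also called calcyclin, binds the ubiquitin ligase adaptor CacyBP and several annexins. Its log2 level was 10.73, 10.45, 10.71 and 10.73 in gland CD4 T cells, against 9.34, 9.45 and 9.43 in spleen CD4 T cells. Every gland array lay above every spleen array, with array 2 lowest in the gland. The difference was 1.25 (SE 0.24), a 2.37-fold rise with a limma adjusted p of 0.00109.

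Anxa2, the annexin that pairs with S100A10 at the cell surface and binds plasminogen activators, stood at 10.33, 10.13, 10.50 and 10.42 in gland CD4 T cells, against 8.95, 9.25 and 9.03 in spleen CD4 T cells. The tissues were far apart relative to the spread within each. The rise was 1.27 (SE 0.18), or 2.41-fold, with a limma adjusted p of 8.5e-05.

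Lgals3 encodes galectin-3, which cross-links N-glycans on surface receptors. It stood at 8.37, 7.91, 8.15 and 8.10 in gland CD4 T cells, against 6.92, 6.69 and 7.08 in spleen CD4 T cells, with no overlap. The rise was 1.24 (SE 0.32), or 2.36-fold (limma adjusted p = 0.0098).

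S100a11 and its partner Anxa1 passed the adjusted p but stayed just under the 2-fold limit. S100a11 stood at 10.24, 10.27, 10.33 and 10.26 in gland CD4 T cells, against 9.29, 9.30 and 9.44 in spleen CD4 T cells, a difference of 0.93 (SE 0.07, 1.91-fold, limma adjusted p = 6.24e-08). Among these 10 genes it had the smallest standard error. Anxa1, a glucocorticoid-induced protein that signals through formyl peptide receptors, stood at 7.11, 7.41, 7.49 and 7.51 in gland CD4 T cells, against 6.48, 6.36 and 6.45 in spleen CD4 T cells. The difference was 0.95 (SE 0.13, 1.93-fold, limma adjusted p = 4.5e-05), and gland array 1 was the lowest of its group. Without that array the fold change passed the limit, at 1.04 on the log2 scale.

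Anxa5, whose product binds phosphatidylserine on dying cells, moved little. It stood at 8.15, 8.29, 8.27 and 8.39 in gland CD4 T cells, against 7.97, 7.97 and 8.12 in spleen CD4 T cells, a difference of 0.26 (SE 0.09) at a limma adjusted p of 0.046. The adjusted p missed 0.05 with all probe sets tested (0.0506), with trend and robust settings (0.0609), without epithelial array 1 (0.0507) and with the CD4 T cell arrays alone in the fit (0.0574). It also missed it with arrays centred (0.375) or quantile normalized (0.115), with the replicate block (0.118), and without gland array 2, 3 or 4 or spleen array 1 or 2 (0.0801 to 0.145).

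S100a4 encodes metastasin, which binds non-muscle myosin heavy chain and favours cell motility. It stood at 11.73, 11.67, 11.78 and 11.67 in gland CD4 T cells, against 11.05, 11.10 and 11.13 in spleen CD4 T cells. The 2 tissues were cleanly separated by a small step of 0.62 (1.53-fold). The model gave this step an SE of 0.57 and an adjusted p of 0.524, because its variance is shared with the B cell and epithelial arrays, in which S100a4 varied by an SD of 0.72 to 1.55. Fitted on the CD4 T cell arrays alone in limma, the same step had an SE of 0.07 and an adjusted p of 0.000294.

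S100a10, Lgals1 and Vim showed no difference past the test in CD4 T cells. S100a10, the p11 subunit of the annexin A2 tetramer, averaged 10.67 ± 0.21 (SD, n = 4) in gland CD4 T cells and 10.67 ± 0.09 (SD, n = 3) in spleen CD4 T cells, with a 95% interval of the difference from -0.25 to 0.25. Lgals1, which encodes galectin-1, a lectin that can trigger death of activated T cells, averaged 11.43 ± 0.14 in gland CD4 T cells and 11.13 ± 0.11 in spleen CD4 T cells. Its interval ran from -0.40 to 1.0, so a change close to 2-fold is within it. The variance behind that interval is shared with gland B cells and epithelium, in which Lgals1 varied by an SD of 0.88 and 0.41. Vim averaged 11.35 ± 0.04 in gland CD4 T cells and 11.29 ± 0.02 in spleen CD4 T cells, and its interval ran from -0.11 to 0.22.

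**Figure D2:**
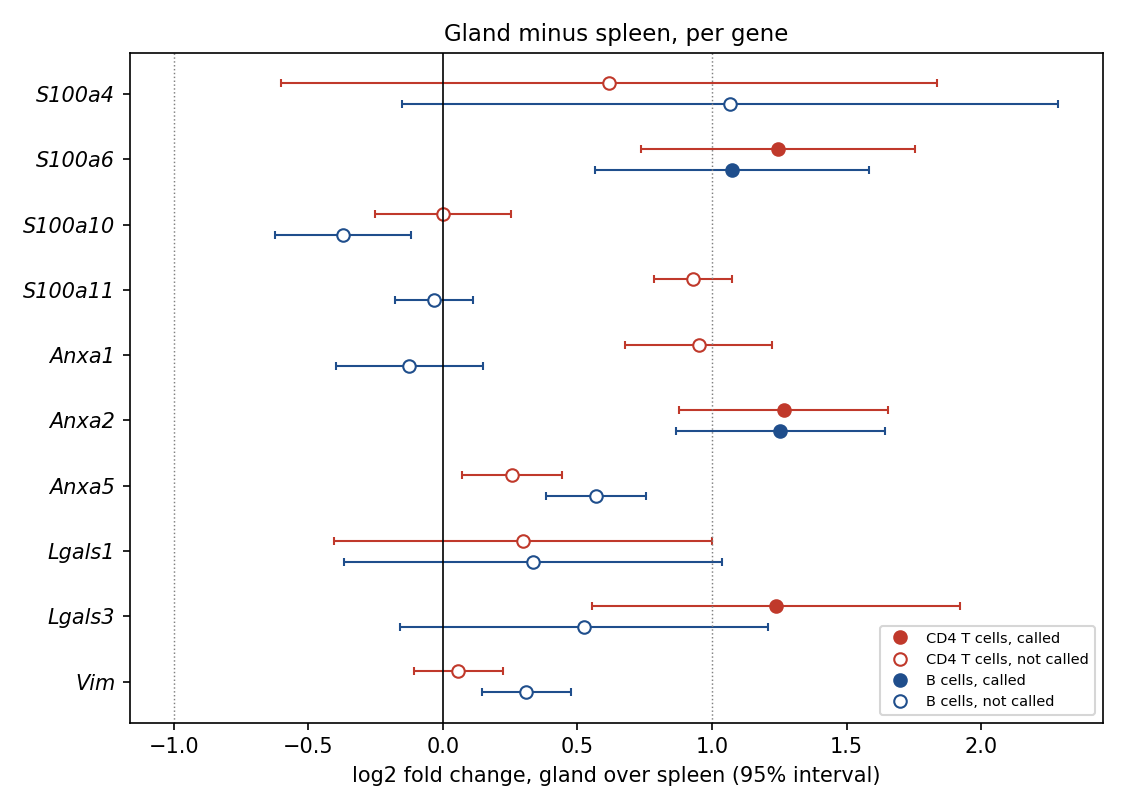
Gland minus spleen difference in log2 expression for each gene, in CD4 T cells (red) and B cells (blue); points are limma estimates, bars are 95% intervals, filled points were called, and dotted lines mark a 2-fold change. S100a6 and Anxa2 were called in both cell types, and S100a11 and Anxa1 lay near 0.93 and 0.95 in CD4 T cells but near 0 in B cells.

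In gland B cells, set against spleen B cells, 2 of the 10 genes rose by more than 2-fold, S100a6 and Anxa2, while 2.58% of all genes were called higher. None of the 10 was called lower, against 1.6% of all genes. By adjusted p alone Anxa5 and Vim were also higher, making 4 of 10 against 7.79% of all genes, and S100a10 was lower, against 9.87% of all genes. The median difference was 0.43, against 0.00 over all genes. Arrays did not overlap for 5 genes with the gland higher (Anxa2, Anxa5, Lgals3, S100a6 and Vim; 14.5% of all genes) and for S100a10 with the gland lower (16.1% of all genes).

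Anxa2 stood at 7.41, 7.32, 7.66 and 7.0 in gland B cells, against 5.76, 6.57 and 5.95 in spleen B cells. The lowest gland array still lay above the highest spleen array. The rise was 1.25 (SE 0.18), or 2.38-fold, with a limma adjusted p of 0.000203.

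S100a6 stood at 7.10, 6.62, 5.94 and 6.22 in gland B cells, against 5.48, 4.83 and 5.87 in spleen B cells. The groups came closest at gland array 3 and spleen array 3, which is the array with neutrophil transcripts. The rise was 1.07 (SE 0.24), or 2.11-fold (limma adjusted p = 0.00531). It missed the limits with B cell arrays alone in the fit (adjusted p = 0.0504), without gland array 1 (0.86) and without spleen array 2 (0.79), and it was 1.31 without spleen array 3.

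Anxa5 and Vim rose by less than 2-fold in gland B cells. Anxa5 stood at 7.09, 7.20, 7.13 and 7.31 in gland B cells, against 6.67, 6.50 and 6.68 in spleen B cells, a difference of 0.57 (SE 0.09, limma adjusted p = 0.000314). Vim stood at 11.22, 11.21, 11.37 and 11.22 in gland B cells, against 10.89, 10.92 and 11.03 in spleen B cells, a difference of 0.31 (SE 0.08, limma adjusted p = 0.0116). Vim has 3 probe sets on the array; with their mean in place of the brightest the difference was 0.47. Without spleen array 1 or 2 the adjusted p for Vim was 0.0545 or 0.0504.

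S100a10 was lower in gland B cells, at 9.07, 9.43, 9.45 and 9.34, against 9.64, 9.73 and 9.71 in spleen B cells. The difference was -0.37 (SE 0.12, limma adjusted p = 0.0411), opposite in sign to that of its partner Anxa2. The adjusted p missed 0.05 with arrays centred (0.0535), without gland array 1 (0.109) or 4 (0.0654), and without spleen array 1 (0.0772), 2 (0.126) or 3 (0.109).

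S100a4 was scattered in B cells, at 6.62, 6.25, 5.23 and 6.86 in gland B cells, against 4.84, 4.36 and 6.32 in spleen B cells. The highest spleen value was array 3, where the neutrophil markers were high; their part in it was not tested. The difference was 1.07 (SE 0.57, limma adjusted p = 0.236), and 1.64 without spleen array 3 (adjusted p = 0.0875). Lgals1 was the other scattered gene, at 9.57, 9.61, 7.81 and 8.46 in gland B cells, against 8.45, 8.53 and 8.60 in spleen B cells. Gland arrays 1 and 2 were high for Lgals1, and so were they for Ccr9 and for Cd7, a surface receptor of galectin-1 that read 7.35 and 7.23 there, against 4.51 and 5.86 in gland arrays 3 and 4. The list of 5 dendritic cell markers, which includes Ccr9, averaged 5.34 and 5.44 in those 2 arrays, against 4.74 and 4.92 in the other two. Of its other members, Itgax read 4.81, 4.86, 4.26 and 4.62 in gland arrays 1 to 4, with the same 2 arrays highest. Flt3 read 5.05, 5.87, 5.45 and 4.82 and Zbtb46 5.42, 5.45, 5.77 and 5.31, a different order, and Xcr1 lay between 2.35 and 2.56. The part of such cells in the Lgals1 values was not tested.

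Lgals3, S100a11 and Anxa1 did not pass in B cells. Lgals3 stood at 9.15, 8.79, 8.67 and 8.72 in gland B cells, against 8.27, 8.40 and 8.26 in spleen B cells. These arrays did not overlap, but the difference of 0.52 (SE 0.32) had an adjusted p of 0.308 in the limma fit to all arrays and 0.0233 with B cell arrays alone (SE 0.12). S100a11 averaged 10.36 ± 0.07 in gland and 10.39 ± 0.06 in spleen B cells (interval of the difference -0.18 to 0.11). Anxa1 averaged 7.48 ± 0.05 in gland and 7.61 ± 0.17 in spleen B cells (interval -0.40 to 0.15).

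**Figure D3:**
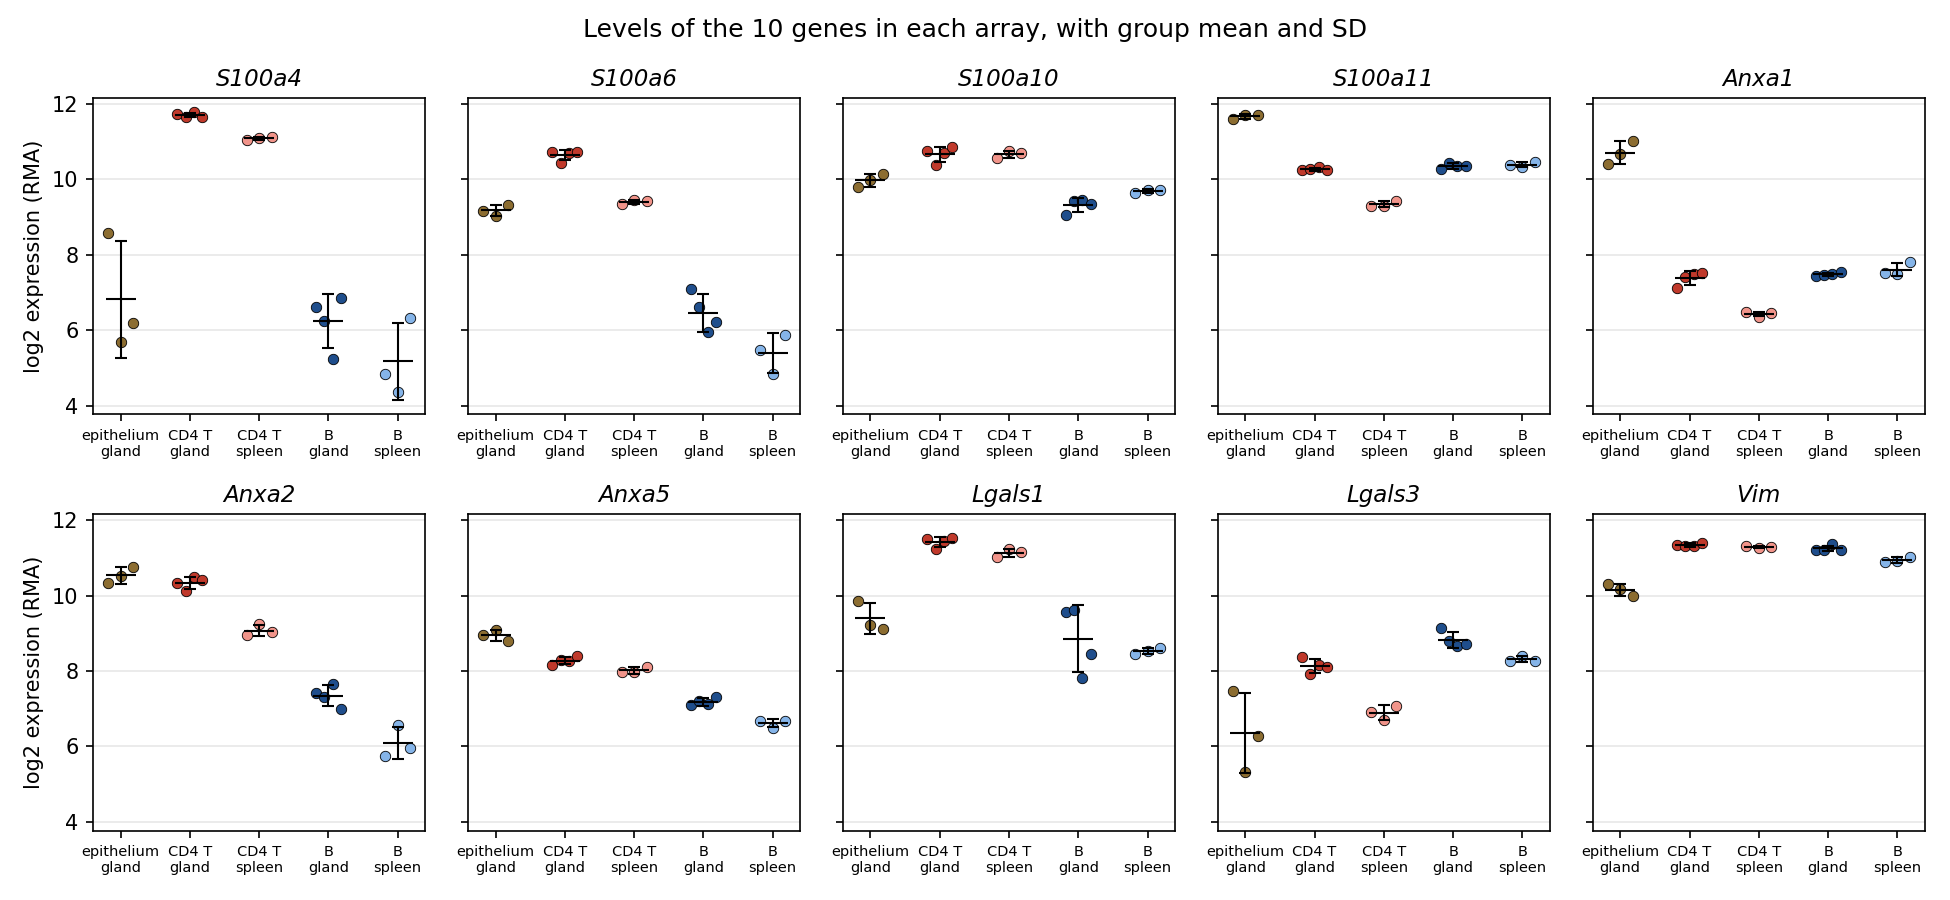
Log2 expression of the 10 genes in every array, by group; points are arrays, horizontal lines are group means and bars are SDs. S100a4 and S100a6 were far higher in both CD4 T cell groups than in B cells, and Anxa1 and S100a11 were lowest in spleen CD4 T cells and highest in the epithelial sort.

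The gland minus spleen difference was tested between the 2 lymphocytes as an interaction. Anxa1 differed by 1.08 (SE 0.18, limma adjusted p = 0.0009) and alone among the 10 was called, where 3.87% of all genes were called with the larger change in CD4 T cells and 1.22% with the larger change in B cells. S100a11 differed by 0.97 (SE 0.10, limma adjusted p = 5.63e-06), just short of the fold limit; by adjusted p alone 2 of 10 passed, against 6.55% of all genes. For both genes the gland CD4 T cells stood at the level of B cells, and the spleen CD4 T cells lay below it. The Anxa1 call was not kept without spleen B cell array 3 (0.98), nor with arrays centred on their medians (0.94) or quantile normalized (0.93). Anxa2 and S100a6 showed no detectable interaction, with intervals from -0.54 to 0.56 and from -0.55 to 0.89. Lgals3 differed by 0.71 (interval -0.25 to 1.68, limma adjusted p = 0.408), so this fit did not show its rise in CD4 T cells to differ from that in B cells. The interval is wide because the variance is shared with the epithelial arrays. Lgals3 varied by an SD of 1.07 in these, against 0.08 to 0.22 in the lymphocyte groups.

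Epithelial RNA moved with the gland in both lymphocytes, and its values stand beside these results. Of 11 epithelial markers 8 were called higher with the gland in CD4 T cells and 7 in B cells. Over all genes the shares were 5.35% and 2.58%. Relative to the epithelial sort, Krt18, a simple-epithelium keratin, was lower by 3.37 in gland CD4 T cells and 3.53 in gland B cells, Cdh1 by 3.78 and 3.65, and Obp1a, a secreted lacrimal protein, by 1.08 and 0.99. Anxa1 was 3.33 lower than epithelium in gland CD4 T cells and 3.23 lower in gland B cells, and its mean in gland B cells was not above that in spleen B cells. S100a11 was 1.40 and 1.32 lower than epithelium, and Anxa5 0.68 and 1.77 lower. Anxa2 was 0.19 lower in gland CD4 T cells, a step that did not pass, and 3.19 lower in gland B cells. S100a6 was 2.71 lower in gland B cells. The part of epithelial RNA in these changes was not tested. Lgals3 was higher than in epithelium, by 1.77 in gland CD4 T cells and 2.47 in gland B cells, and S100a6 was higher by 1.48 in gland CD4 T cells.

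The steps between cell types were wide for S100a4, S100a6, Anxa2 and Lgals1. In the gland 6 of the 10 genes were called higher in CD4 T cells (5.97% of all genes), and none was called lower (3.73%). S100a4 was 5.47 higher (SE 0.53, 44.4-fold), with 11.71 ± 0.05 in gland CD4 T cells and 6.24 ± 0.72 in gland B cells. S100a6 was 4.18 higher (SE 0.22, 18.2-fold), at 10.66 ± 0.14 and 6.47 ± 0.50 in the same cells. Anxa2 was higher by 2.99 (SE 0.17), Lgals1 by 2.57 (SE 0.31), S100a10 by 1.35 (SE 0.11) and Anxa5 by 1.09 (SE 0.08), with limma adjusted p-values from 3.14e-10 (S100a6) to 5.6e-06 (Lgals1) over the 6. Lgals3 ran the other way: every gland B cell array lay above every gland CD4 T cell array, by 0.70 on average, with a limma adjusted p of 0.0906 in the fit to all arrays and 0.00288 with these 2 groups alone. S100a11 (interval -0.21 to 0.05), Anxa1 (-0.35 to 0.15) and Vim (-0.06 to 0.25) did not pass.

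In the spleen the same comparison split the genes. Higher in spleen CD4 T cells were 5 of 10 (4.52% of all genes): S100a4 by 5.92 (SE 0.61), S100a6 by 4.01 (SE 0.26), Anxa2 by 2.98 (SE 0.20), Lgals1 by 2.60 (SE 0.35) and Anxa5 by 1.40 (SE 0.09). Lower in spleen CD4 T cells were 3 of 10 (4.63% of all genes): Lgals3 by -1.41 (SE 0.34), Anxa1 by -1.18 (SE 0.14) and S100a11 by -1.05 (SE 0.07). S100a10 (0.98) and Vim (0.35) passed the adjusted p without the fold. The steps for S100a4 and S100a6 were 6.50 and 4.25 without spleen B cell array 3. Over the 14 lymphocyte arrays S100a4 and S100a6 had a Pearson correlation of 0.983 and S100a11 and Anxa1 one of 0.970, while S100a10 and Lgals3 had one of -0.741; these arrays share cell type and tissue, so the values describe the group pattern.

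**Figure D4:**
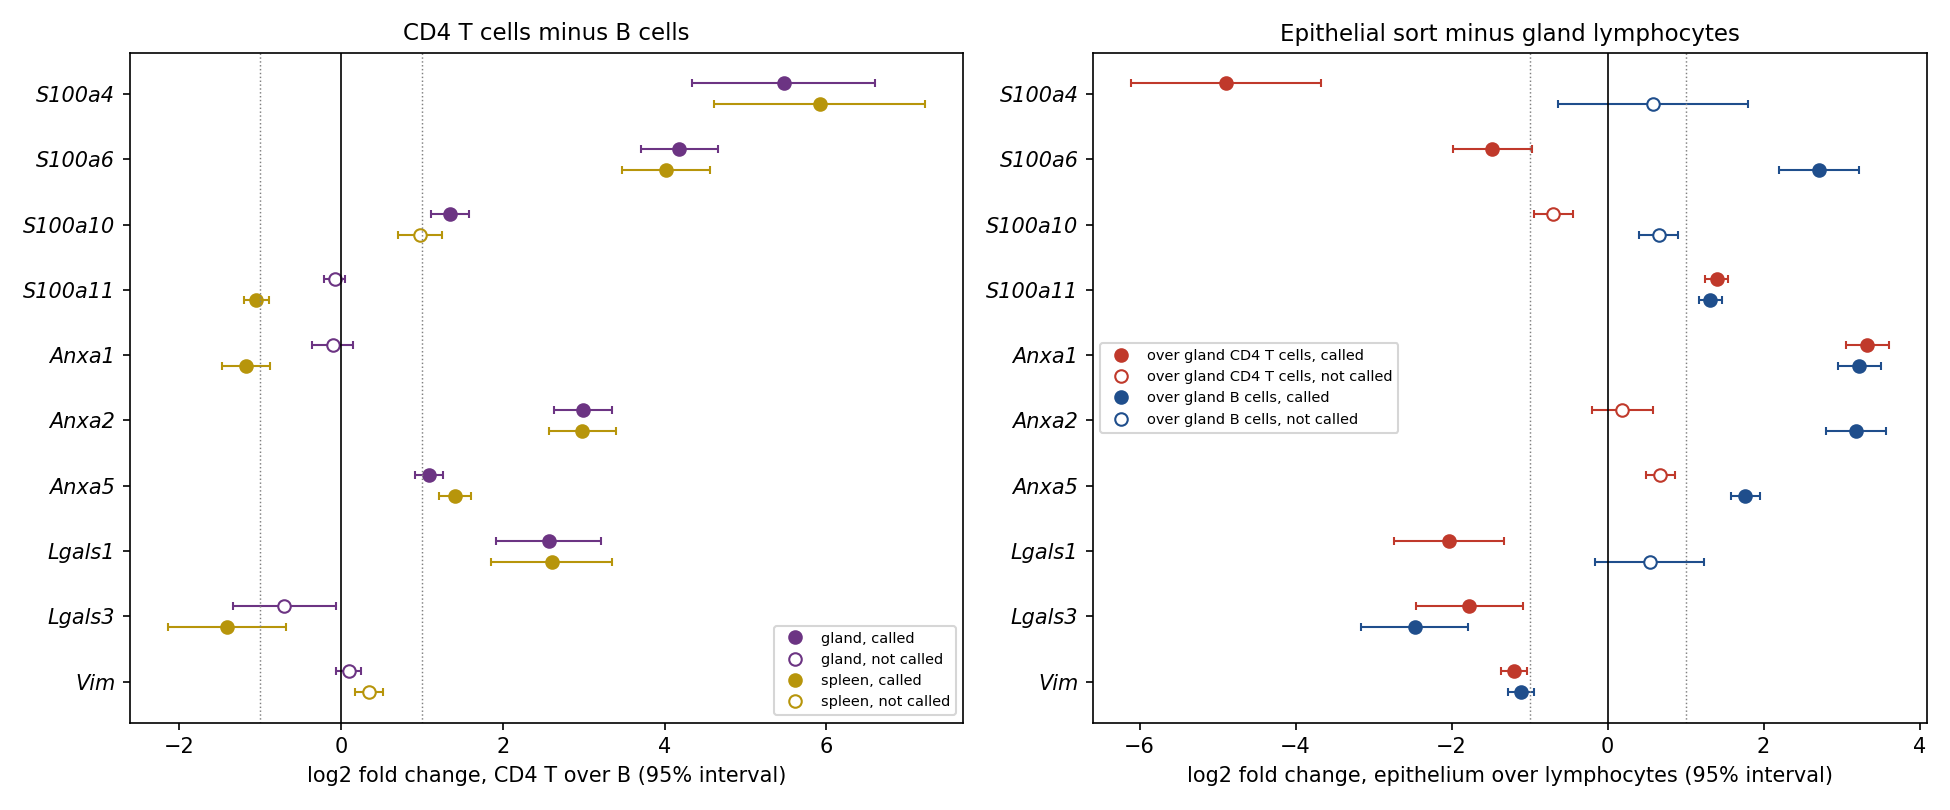
Differences in log2 expression between cell types: CD4 T cells minus B cells for each of the 2 tissues (left), and the epithelial sort minus gland CD4 T cells and minus gland B cells (right). Points are limma estimates, bars 95% intervals, filled points were called and dotted lines mark 2-fold; S100a4 shows the widest difference between CD4 T and B cells, and Anxa1 is over 3 log2 units higher in the epithelial sort than in either gland lymphocyte.

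The epithelial sort was set against each gland lymphocyte. Against gland CD4 T cells 2 of the 10 genes were higher in epithelium (14.8% of all genes) and 5 were lower (10.6%); against gland B cells 5 were higher (16.2%) and 2 were lower (10.4%). Anxa1 stood at 10.42, 10.68 and 11.02 in epithelium, 3.33 (SE 0.13, 10.1-fold) above gland CD4 T cells and 3.23 (SE 0.13, 9.38-fold) above gland B cells. S100a11 stood at 11.60, 11.72 and 11.71, above gland CD4 T cells by 1.40 and above gland B cells by 1.32 (SE 0.07 each). No lymphocyte array reached the lowest epithelial value of either gene.

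Anxa2 stood at 10.33, 10.52 and 10.76 in epithelium, which overlapped gland CD4 T cells (difference 0.19, interval -0.20 to 0.58) and was 3.19 above gland B cells. Anxa5 stood at 8.95, 9.08 and 8.81, above gland CD4 T cells by 0.68 and above gland B cells by 1.77. S100a6 stood at 9.17, 9.03 and 9.33, below gland CD4 T cells by -1.48 and above gland B cells by 2.71. S100a10 averaged 9.98 ± 0.17, between gland CD4 T cells (-0.70 against them) and gland B cells (0.65 against them). The epithelial mean lay between the 2 gland lymphocytes for S100a4, S100a6, S100a10 and Lgals1. It lay above both for Anxa1, Anxa2, Anxa5 and S100a11, and below both for Lgals3 and Vim. The steps from gland CD4 T cells for Anxa2, and from gland B cells for S100a4 and Lgals1, did not pass.

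Vim, a marker of non-epithelial cells, was lower in the epithelial sort than in gland CD4 T cells by -1.20 and in gland B cells by -1.10 (SE 0.08 each), at 10.31, 10.17 and 9.98. The steps were wider by its other probe sets, which averaged 9.92 and 8.27 in epithelium. They averaged 11.32 and 10.56 in gland CD4 T cells, and 11.20 and 10.22 in gland B cells. The epithelial sort carried the endothelial, myoepithelial and fibroblast markers given above, and their part in the Vim level was not tested. S100a4 stood at 8.59, 5.68 and 6.20, Lgals3 at 7.46, 5.33 and 6.28 and Lgals1 at 9.87, 9.21 and 9.12 in epithelial arrays 1, 2 and 3. All 3 genes were highest in array 1, the array with Ptprc. Lgals3 was below gland CD4 T cells by -1.77 and gland B cells by -2.47, and by -2.32 and -3.02 without that array. S100a4 was below gland CD4 T cells by -4.89, and by -5.77 without that array. Against gland B cells the S100a4 difference of 0.58 (limma adjusted p = 0.389) turned to -0.30 without it (adjusted p = 0.576). Lgals1 was below gland CD4 T cells by -2.03 (SE 0.33), and its difference from gland B cells, 0.54, did not pass (limma adjusted p = 0.166).

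The order of the group means differed from gene to gene. For Anxa5 alone all neighbours differed past the adjusted p, in the order epithelium, gland CD4 T, spleen CD4 T, gland B and spleen B. Its step between the CD4 T cell groups passed narrowly (limma adjusted p = 0.046) and missed 0.05 under the alternatives given above. Anxa2 had the same order, but the step between epithelium and gland CD4 T cells did not pass (adjusted p = 0.393). For S100a6 gland CD4 T cells came first, followed by spleen CD4 T cells and epithelium, a step that did not pass (adjusted p = 0.454), gland B cells and spleen B cells. For S100a4 and Lgals1 the CD4 T cell groups came first, and the next 3 groups (epithelium, gland B, spleen B) had no step between neighbours past the test. S100a11 and Anxa1 shared an order: epithelium, then spleen B, gland B and gland CD4 T cells with no step between neighbours past the test, then spleen CD4 T cells. Lgals3 was highest in gland B cells, followed by spleen B and gland CD4 T cells with no step past the test among these 3 groups. The step down to spleen CD4 T cells passed (adjusted p = 0.0098), and that between spleen CD4 T cells and epithelium did not (adjusted p = 0.193). Vim gave gland CD4 T, spleen CD4 T and gland B cells with no step past the test, then spleen B cells and epithelium. The range of the 5 group means was 6.54 for S100a4, 5.26 for S100a6, 4.44 for Anxa2 and 4.28 for Anxa1, and 1.35 for S100a10 and 1.20 for Vim.

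The other measured genes of the 3 families were read against the share of all genes called higher with the gland, 5.35% in CD4 T cells and 2.58% in B cells. With counts of 0 or 1 of 7 to 10 genes a family, these lists were too short to be told from that share. Of 10 other S100 genes measured, S100a5 alone was called in gland against spleen CD4 T cells and none in B cells. S100a5, which lies between S100a4 and S100a6 on chromosome 3, averaged 5.17 ± 0.16 in gland CD4 T cells and 3.52 ± 0.08 in spleen CD4 T cells, a difference of 1.64 (SE 0.12, limma adjusted p = 4.35e-08). Of 8 other annexins, Anxa4 alone was called in CD4 T cells, at 8.47 ± 0.13 in gland CD4 T cells and 6.60 ± 0.31 in spleen CD4 T cells (1.87, SE 0.12, limma adjusted p = 1.66e-08), and none in B cells. Its gland B cells averaged 8.34 ± 0.04 and its spleen B cells 8.13 ± 0.11, so Anxa4, like Anxa1 and S100a11, was lowest in spleen CD4 T cells, with an interaction of 1.66 (SE 0.17). Of 7 other galectin genes and related genes, Lgals3bp, which encodes a secreted glycoprotein bound by galectin-3, was called in CD4 T cells (1.17, SE 0.30, limma adjusted p = 0.00883) and in B cells (1.80, SE 0.30, limma adjusted p = 0.000595). Lgalsl, a galectin-like gene, differed by 0.93 in CD4 T cells and by -0.50 in B cells, and its interaction of 1.42 was called. S100a8 and S100a9 were lower in gland B cells by -2.69 and -2.44 without passing (limma adjusted p = 0.077 and 0.0584), and spleen B cell array 3 alone was high.

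**Figure D5:**
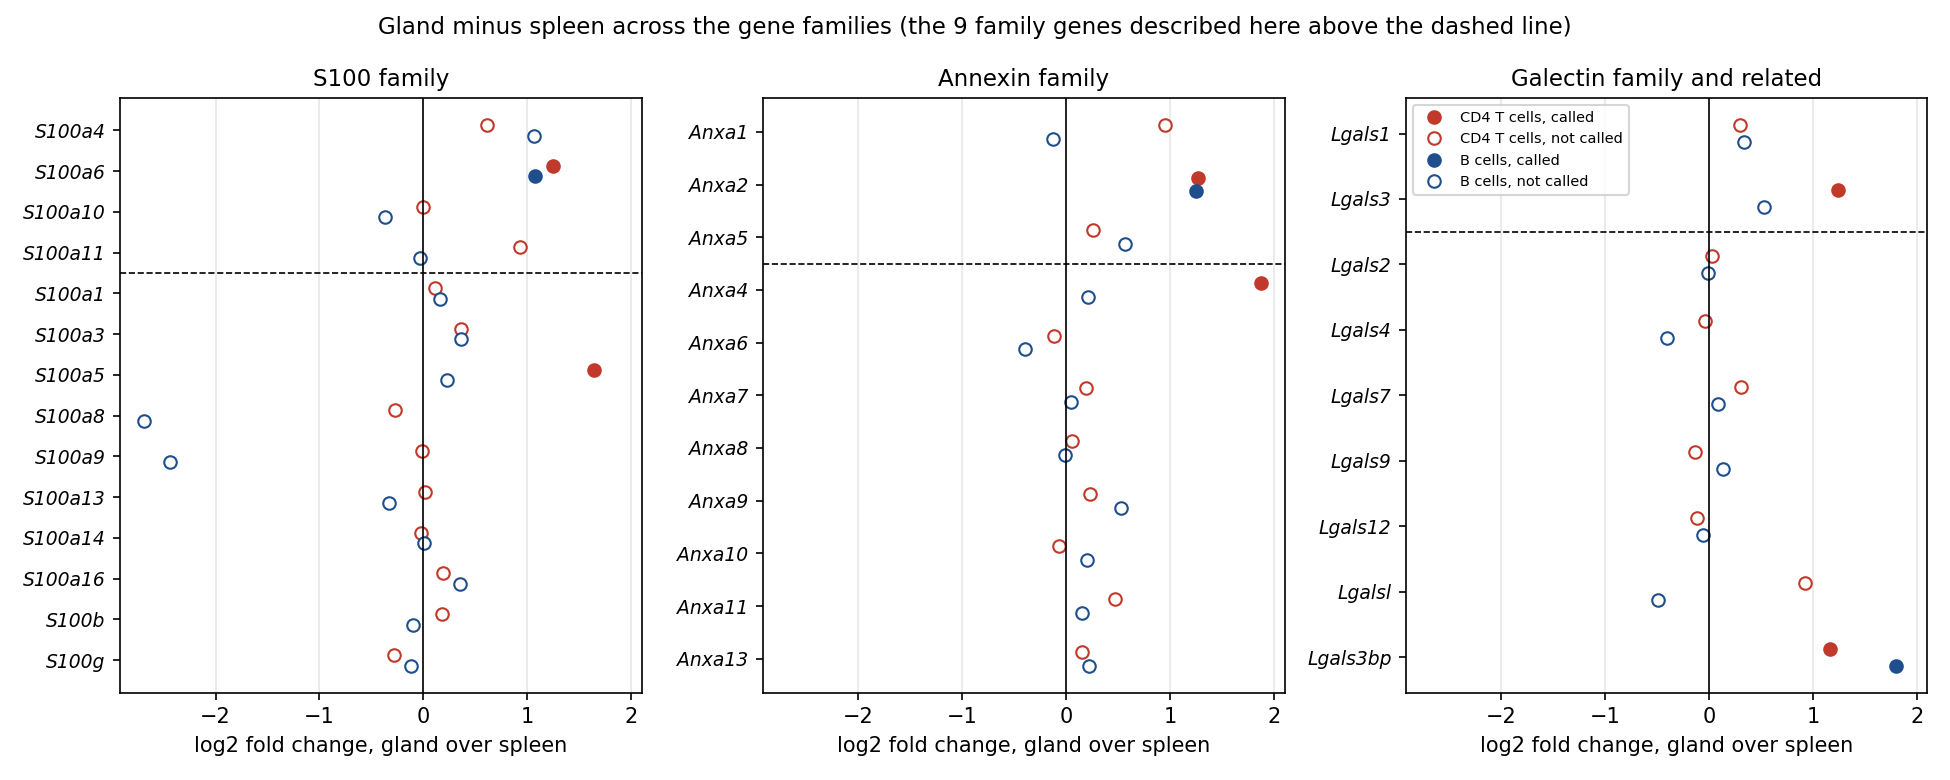
Gland minus spleen difference in log2 expression in CD4 T cells (red) and B cells (blue) for the measured S100, annexin and galectin genes; the 9 family genes described here are above the dashed lines and the other family members below, and filled points were called. Below the lines S100a5, Anxa4 and Lgals3bp were called in CD4 T cells and Lgals3bp in B cells.

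Of 16 partners and receptors of these proteins measured, 1 was called higher and 1 lower in gland CD4 T cells, against 5.35% and 1.62% of all genes. Itgb1, the beta1 integrin bound by galectins, was the higher one in gland CD4 T cells, at 9.56 ± 0.08, against 8.29 ± 0.28 in spleen CD4 T cells (1.28, SE 0.15). Ager, which encodes RAGE, a receptor for several S100 proteins, was the lower one, at 6.52 ± 0.13 in gland CD4 T cells and 7.80 ± 0.32 in spleen CD4 T cells (-1.28, SE 0.20, limma adjusted p = 0.000161). None of the 16 was called in B cells, where 2.58% of all genes were higher and 1.6% lower. Ahnak, the giant scaffold that binds the S100A10 and annexin A2 complex, differed by 0.31 in CD4 T cells and 0.02 in B cells. Of 17 cytoskeleton genes, Capg, an actin filament capping protein, and Lmna, the A-type lamin, were called higher in CD4 T cells, by 2.18 (SE 0.10) and 1.80 (SE 0.53). Lmna was also called in B cells, by 1.90 (SE 0.53). Gland CD4 T cell array 2 (8.70) and gland B cell array 3 (8.77) were the high arrays for Lmna.

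Genes that mark memory and effector CD4 T cells were set beside the 10 genes. The memory and effector list, too, was chosen with earlier results of these data known. Of 20 measured, 11 were called higher in gland CD4 T cells over those of the spleen, with a median of 1.48, and 3 in gland B cells over those of the spleen. Over all genes 5.35% were called higher in CD4 T cells and 2.58% in B cells. Bhlhe40, which encodes a transcriptional repressor induced on T cell activation, differed by 5.15 (SE 0.14), Ifng by 4.91 (SE 0.95), the chemokine Ccl5 by 3.10 (SE 0.56) and the transcription factor Maf by 2.93 (SE 0.18) in CD4 T cells. Cd44, the classic surface marker of antigen-experienced T cells, stood at 9.68 ± 0.09 in gland CD4 T cells and 8.68 ± 0.14 in spleen CD4 T cells (1.0, SE 0.21). In B cells the 3 were Cxcr3 (1.99), Id2 (1.72) and Bhlhe40 (1.53). Of 8 naive T cell genes measured, 3 were called lower in gland CD4 T cells, against 1.62% of all genes: Ccr9 (-2.32), Igfbp4 (-1.92) and the transcription factor Lef1 (-1.42). Ccr9 and Klf2 of that list were called higher in gland B cells, by 2.13 and 1.44. From a list of memory B cell and age-associated B cell genes, 11 of which were measured, Cxcr3, Cd86 (1.06) and Fas (1.04) were called higher in gland B cells, and 5 were called higher in gland CD4 T cells. Itgb1, Ahnak, Crip1, Cxcr3, Tbx21, Prdm1, Ccr2, Ccr9, Itgam and Itgax each stand in more than 1 of the lists used here. So do S100a8 and S100a9, and a call of such a gene counts in each of its lists.

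By likeness of pattern over the 14 lymphocyte arrays, the closest gene to each was taken among 9452 genes above the median level. The highest of so many correlations is large by selection, so its size is a description. S100a4 was most like Cd3d (Pearson 0.994), which encodes a CD3 chain of the T cell receptor complex, and S100a6 most like Itm2c (0.994). Anxa5 was most like Mllt3 (0.991), Anxa2 most like Abi2 (0.986), Lgals1 most like Ldhb (0.981), Lgals3 most like Klf12 (0.977), S100a10 most like Adcy3 (0.976) and Vim most like Smad7 (0.968). S100a11 (0.980) and Anxa1 (0.962) had the same closest gene, Hmgn3, which averaged 6.10 in gland CD4 T cells and 2.75 in spleen CD4 T cells, and 6.60 in gland and 7.11 in spleen B cells. The mean of the 10 genes was most like Abi2, Itm2c, Niban1, Notch1 and Nrp1 (0.993 to 0.996). The arrays share cell type and tissue, so likeness here describes the group pattern.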

How the data were processed

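The authors deposited log2 expression values of 45141 probe sets on 17 arrays; per the submitters' processing notes these came from Partek and RMA. The array build is not given in the sources used here. Per the labels' protocols, sorted cells were lysed directly and RNA was amplified and labelled with biotin; 3 RNA samples of lower integrity could not be matched to arrays. Probe sets were named from the platform annotation: 28898 had 1 gene (28689 matched by identifier), 551 several, 15588 none listed, and 104 were controls. Where a gene had several probe sets, the brightest by its mean over the 17 arrays stood for it, giving 17097 genes; dim genes were not filtered out.

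Group means were estimated in limma 3.58.1 under R 4.3.3 (lmFit, eBayes; 12 residual and 3.17 prior degrees of freedom) over 7 comparisons, and over 10 pairs of groups for the order of levels. Adjustment was by Benjamini-Hochberg over all genes, and a gene was called at an adjusted p under 0.05 and at least 2-fold. The number of arrays limits the precision; replicate arrays correlated at 0.976 to 0.996. The pipeline was tested on simulated data. The 10 genes and the gene lists were chosen with earlier results of these data known. Named genes were all 10, per list up to 4 called genes, largest change first, list genes needed to describe what did not pass, and the genes most like each. Lineage genes checked the labels; some listed genes were not analysed here. Alternatives were no fold minimum, a filter on dim genes, probe set means, centring, quantile normalization, trend and robust eBayes, array weights, the replicate number as a block, only the compared groups, and each array left out. Epithelial array 1 was also left out of the other comparisons, a choice made after seeing the data. Equal replicate numbers did not pair the arrays, with same-number correlations from -0.397 to 0.215. Figures were drawn with matplotlib 3.10.9.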

Additional observations from a re-analysis of the deposited data

Results flagged for a closer look

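Of 20 sets of a gene in a gland group of 4 arrays, 2 held an array apart from the rest by Dixon's test at the 95% level, and chance flags about 1 in 20 such sets. S100a6 in gland CD4 T cells was 10.45 in array 2, against 10.71 to 10.73 in the other three; all 4 lay above the spleen arrays. Vim in gland B cells was 11.37 in array 3, against 11.21 to 11.22 in the other three. The gland minus spleen difference itself differed between CD4 T cells and B cells for Anxa1, by 1.08, and for S100a11, by 0.97, both by the interaction term of the limma fit. The Anxa1 difference was 0.95 in CD4 T cells and -0.13 in B cells, and that of S100a11 was 0.93 in CD4 T cells and -0.03 in B cells.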

How the results depend on the processing

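Of 1240 alternative values for 70 pairs of a gene and a comparison, 1206 kept their direction and their side of the call (adjusted p and fold together), 8 lost a call, 3 gained one and 23 changed sign, all 23 for differences that were not called. The count in gland against spleen B cells, 2 of 10 as reported, was 5 with no fold minimum, 1 with only the B cell arrays in the fit and 1 to 2 with an array left out (1 without gland array 1 or spleen array 2). The count in gland against spleen CD4 T cells, 3 as reported, was 6 with no fold minimum. With gland CD4 T cell array 1 left out, Anxa1 also passed the fold limit there. The count for the interaction, 1 as reported, was 2 with no fold minimum, 0 with centring or quantile normalization, and 0 to 2 with an array left out (0 without spleen B cell array 3, 2 without spleen CD4 T cell array 3). S100a11 in epithelium against gland B cells (0.95) and Anxa5 in gland CD4 T against B cells (0.97) fell under the fold limit with centring. Differences near 0 changed sign: S100a10 in gland against spleen CD4 T cells (0.0561 with array weights, -0.0598 to 0.0981 with an array left out) and Vim there (-0.10 with centring); the interaction of S100a6 (-0.0687 to 0.4533 with an array left out), of Lgals1 (-0.39 to 0.21) and of Anxa2 (-0.12 with centring, -0.0022 with quantile normalization, -0.23 to 0.18 with an array left out); Vim in gland CD4 T against B cells (-0.0238 with centring); Anxa2 in epithelium against gland CD4 T cells (-0.0652 with centring); and S100a4 in epithelium against gland B cells (-0.30 to 1.15 with an array left out). Centring shifted the median of all genes to -0.19 in gland against spleen CD4 T cells and to -0.49 in epithelium against gland B cells. The cause of the other changes was not tested. With the replicate number as a block the counts were unchanged at 2, 3, 1, 6, 8, 7 and 7, and whether the numbers pair the arrays is not known. With 3 or 4 arrays a group, small steps in S100a4 and Lgals1 were not detectable where other groups varied widely.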

Other observations

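Outside the gland against spleen comparisons, some relatives of the 10 genes were called between cell types. Other S100 genes measured were 10, other annexins 8 and other galectin and related genes 7. Higher in epithelium than in gland B cells were 2, 2 and 2 of them (16.2% of all genes). Against gland CD4 T cells 2, 2 and 1 were higher (14.8%). Lower in epithelium were 0, 0 and 1 against gland B cells (10.4%) and 1, 0 and 1 against gland CD4 T cells (10.6%). The lists were too short to be told from these shares. S100a16 and S100a1, calcium-binding relatives of S100a4, were called higher in the epithelial sort than in both gland lymphocytes: S100a16 averaged 7.90 ± 0.24 in epithelium, against 4.21 ± 0.08 in gland CD4 T cells and 4.23 ± 0.17 in gland B cells. Anxa4 was above gland CD4 T cells by 1.57 (SE 0.12) and above gland B cells by 1.70 (SE 0.12) in epithelium, and Lgalsl by 1.49 (SE 0.12) and 4.74 (SE 0.12). Lgals9, which encodes galectin-9, was lower in epithelium, at 6.93 ± 0.17, against 8.58 ± 0.26 in gland CD4 T cells and 8.47 ± 0.31 in gland B cells. Dysf, a membrane repair protein that binds annexins, averaged 8.68 ± 0.29 in epithelium, against 4.16 ± 0.11 in gland CD4 T cells and 4.32 ± 0.11 in gland B cells.

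Between lymphocytes, Anxa6 and S100a13 were called higher in CD4 T cells than in B cells in both tissues. In the gland 2 of 10 S100, 1 of 8 annexin and 2 of 7 galectin and related genes were higher (5.97% of all genes). In the spleen these counts were 1, 1 and 2 (4.52%). Lower in CD4 T cells were 0, 0 and 0 in the gland (3.73%) and 0, 1 and 0 in the spleen (4.63%). Anxa6 was higher by 1.85 (SE 0.10) in the gland and 1.57 (SE 0.12) in the spleen, and S100a13 by 1.36 (SE 0.09) and 1.01 (SE 0.10). Anxa4 was lower in CD4 T cells than in B cells in the spleen, by -1.53 (SE 0.13), and differed by 0.13 in the gland (limma adjusted p = 0.436).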
